A study of Mus musculus with 6 samples.

Results

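The 10 genes of antigen processing for MHC class I were followed through Th9 culture and transfer: the proteasome subunit genes Psmb8, Psmb9 and Psmb10, the activator genes Psme1 and Psme2, the peptide transporter genes Tap1 and Tap2, the loading gene Tapbp, the class I light chain gene B2m and the transactivator gene Nlrc5. They were chosen by symbol, and all 10 of 10 were found among 23091 gene symbols. RNA came from naive CD4 T cells of wild-type C57/Bl6j mice aged 7 weeks. All groups were cultured on CD3/CD28 plates in IL-4 (20 ng/ml) and TGFβ (2 ng/ml), with an antibody that blocks interferon γ, conditions that drive cells to the Th9 state, named for its cytokine interleukin 9. The Th9+IL-1β groups also received 10 ng/ml interleukin 1β, and the Th9 groups did not. Each arm was sampled after 1 h, after 3 days (day 3) and in vivo, where CD45.2 cells cultured for 3 days were placed in CD45.1 hosts and sorted back after 1 week. This gave 6 groups of 1 library. The sources used here do not give the number of mice behind each library, or the organ and gate of the sort. Because the antibody was present in all cultures, no group shows the genes with interferon γ left free in culture.

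The proteasome cuts cytosolic proteins into peptides. Interferon replaces its standard catalytic subunits Psmb5, Psmb6 and Psmb7 with Psmb8, Psmb9 and Psmb10, which makes the immunoproteasome, and Psme1 and Psme2 together form the PA28 cap that opens it. Tap1 and Tap2 form the pump that carries peptides into the endoplasmic reticulum, tapasin (Tapbp) holds empty class I molecules at that pump, and B2m encodes the light chain of every classical class I molecule. Nlrc5 switches on the promoters of class I genes, and interferon γ raises the whole set in many cell types. Lymphocytes are known to express these genes without added interferon.

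Psmb9, Tap1, Psmb8 and Tap2 lie next to each other in the MHC on chromosome 17, between bases 34319044 and 34353266 of mm9, the build named in the submitters' processing notes, and Tapbp lies on the same chromosome at 34056423 to 34066235. Psme1 (56197331 to 56200364) and Psme2 (56206277 to 56209938) are neighbours on chromosome 14. Psmb10 (108459628 to 108462292) and Nlrc5 (96996663 to 97051172) lie on chromosome 8, and B2m on chromosome 2 at 121973423 to 121978818. Psmb9 and Tap1 are read in opposite directions from a single stretch of 225 bases between their starts. This stretch is shown because its 2 genes had IL-1β ratios of opposite sign in vivo, as given further on, and the 250 bases before the starts of Psmb8 and B2m are shown for comparison. All 3 are from RefSeq's GRCm38.p6 table, on the plus strand and 5′ to 3′, with matches to 3 motifs in capitals.
Psmb9 to Tap1, chr17:34187331-34187555: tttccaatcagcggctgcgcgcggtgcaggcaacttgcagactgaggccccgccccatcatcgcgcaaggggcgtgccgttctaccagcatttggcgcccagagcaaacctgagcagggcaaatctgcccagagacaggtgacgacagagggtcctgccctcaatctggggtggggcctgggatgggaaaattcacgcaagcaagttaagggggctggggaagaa
Psmb8, chr17:34197945-34198194: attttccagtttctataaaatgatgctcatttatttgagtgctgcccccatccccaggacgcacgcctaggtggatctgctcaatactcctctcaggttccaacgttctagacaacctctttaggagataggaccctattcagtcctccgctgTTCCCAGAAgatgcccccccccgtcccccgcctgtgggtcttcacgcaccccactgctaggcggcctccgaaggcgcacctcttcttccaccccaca
B2m, chr2:122147437-122147686: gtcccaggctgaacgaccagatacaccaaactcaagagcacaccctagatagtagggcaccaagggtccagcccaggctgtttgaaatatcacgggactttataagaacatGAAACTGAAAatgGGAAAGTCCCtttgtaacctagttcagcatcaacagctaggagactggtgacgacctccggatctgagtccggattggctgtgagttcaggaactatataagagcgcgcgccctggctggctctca

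The motifs were searched on both strands in the 250 bases before each start: the interferon-stimulated response element as a pair of GAAA strings 2 bases apart, the interferon γ-activated site as TTCNNNGAA, and the κB site of NF-κB. They stand in 2.98%, 7.02% and 7.25% of the 32851 promoters of the table. Of the 8 class I processing genes with an entry, B2m has the response element, 139 to 130 bases before its start, and a κB match at 126 to 117. Psmb8 has the γ-activated site at 97 to 89 bases before its start. The stretch between Psmb9 and Tap1 holds none of these letter strings.

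The values are the authors' FPKM, fragments scaled to transcript length and to the fragments mapped in the library, with a deposited lower and upper bound at an unstated level. Read depth is unknown. The 1 h libraries were made from RNA depleted of rRNA and the other 4 from poly(A)-selected RNA, so no change from 1 h to day 3 was computed. Between 7313 and 8154 genes reached 5 FPKM in the poly(A) libraries, against 631 and 765 at 1 h. The ribosomal RNA gene Rn45s took 41.3% of the FPKM of Th9 cells at 1 h and 24.7% with IL-1β. All 7 T cell markers found (Cd3d, Cd3e, Cd3g, Cd4, Cd2, Cd5 and Lck) were above 0 in every library. Both in vivo libraries also held transcripts of other cells, with alveolar and airway epithelium markers at 1.84% of the FPKM without and 4.68% with IL-1β. The 1 h libraries held them too, with erythroid markers at 0.152% without and 0.102% with IL-1β. T cell markers there took 0.036% and 0.029%, and B cell markers 0.016% and 0.008%. The part of other cells in the 1 h class I values was not tested. In such bulk samples, fewer cells of a type and less RNA per cell cannot be told apart. As each group has 1 library, differences within a stage lack a replicate check. The word counted is used for a gene whose (FPKM + 1) was at least 2-fold apart in a pair of libraries, with intervals that did not touch and 5 FPKM or more in the library where it was higher. Genes under 5 FPKM in both libraries of a pair were not compared. The ratio of a gene between a pair of libraries is given as a log2 ratio of (FPKM + 1), which understates the change of low genes. A ratio of a gene to another gene is a plain ratio of FPKM.

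B2m was the most abundant of the 10 genes in all 6 libraries. It stood at 2243 FPKM in Th9 cells at day 3, 2645 in Th9+IL-1β cells at day 3, 2711 in Th9 cells in vivo and 3473 in Th9+IL-1β cells in vivo, which ranks it 4th to 9th among all genes of these libraries. The catalytic subunit gene Psmb8 stood at 328, 371, 299.6 and 253 FPKM in the same order, and was the highest of the 10 after B2m in both Th9 libraries. Psmb9 stood at 172, 173, 173 and 105 FPKM, so that 3 libraries were nearly equal and Th9+IL-1β cells in vivo were the lowest. Psmb10 was the scarcest catalytic subunit, at 38.8, 48.7, 45.5 and 49.8 FPKM.

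The activator gene Psme1 stood at 249.6, 443, 251 and 329 FPKM, with both IL-1β libraries above both others and above Psmb8. Psme2 stood at 11.1, 19.6, 6.16 and 17.8 FPKM in the same order of libraries, far below its partner, at a Psme1 to Psme2 ratio between 18.5 and 40.8. Of the stretches of 50 bases in the longest coding Psme2 transcript, 59.3% also occur in its near-identical copy Psme2b, so the level of Psme2 depends on how the authors' counting placed such reads and is uncertain. The same share is 14.1% for Psme1 and at most 2.00% for each of the other 8 genes.

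Tap1 stood at 84.4, 68.1, 91.7 and 109 FPKM, and its partner Tap2 at 78.7, 81.8, 81.3 and 94.8 FPKM. The pump subunits were thus close to each other, with a Tap1 to Tap2 ratio between 0.833 and 1.15. Tapbp stood at 110.2, 100.4, 122 and 156 FPKM. Nlrc5, the regulator of the set, was low at 15.8, 11.01, 19.3 and 27.0 FPKM, lowest in Th9+IL-1β cells at day 3 and highest in Th9+IL-1β cells in vivo.

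**Figure D1:**
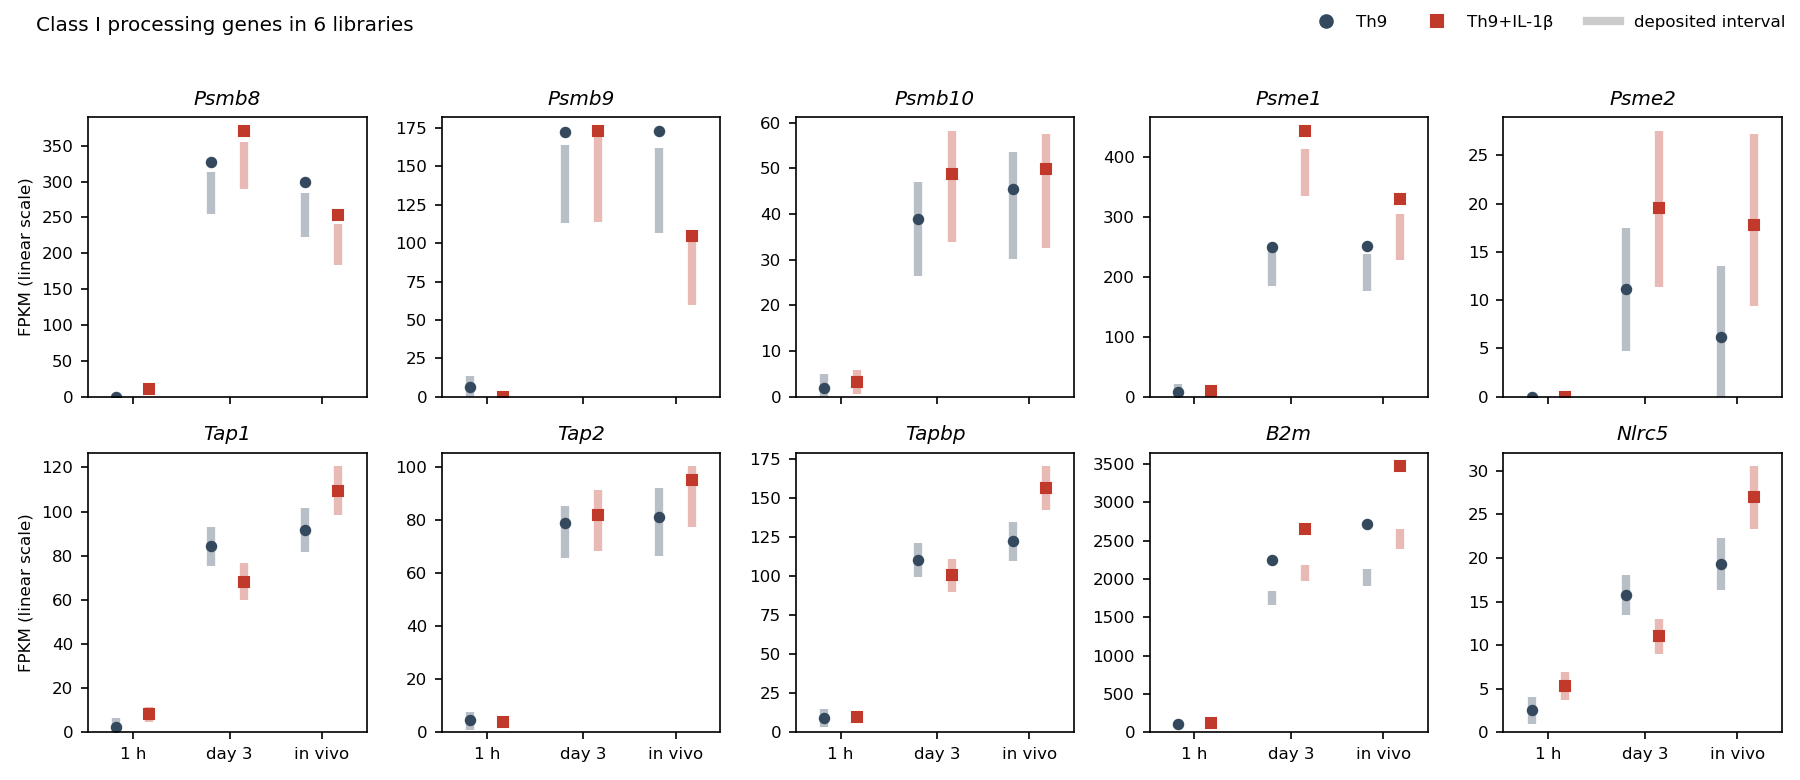
FPKM (linear scale, each panel with its own range) of each class I processing gene in the 6 libraries; circles are Th9, squares Th9+IL-1β, and shaded bars the deposited intervals. The 1 h values, from rRNA-depleted RNA, are lower in each panel, and for Psmb8, Psmb9, Psme1 and B2m the point lies above its own bar at day 3 and in vivo.

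Across the 4 poly(A) libraries the highest value was 1.21 times the lowest for Tap2, 1.28 times for Psmb10, between 1.46 and 1.78 times for Psmb8, B2m, Tapbp, Tap1, Psmb9 and Psme1, 2.45 times for Nlrc5 and 3.18 times for Psme2. Psmb8, Psmb9, Psme1 and B2m had an FPKM above their own upper bound in each of these libraries, 16 of 40 values in all. Over all genes, 237 to 319 of the 23700 entries of a library did. Whether the intervals of these 4 genes were apart is therefore less sure. The 5 genes nearest to the mean pattern of the 10 over these 4 libraries were Fbxl6, Srprb, Nfkbib, Sharpin and Pelp1, at a root mean square difference between 0.017 and 0.029 on the centred log2 scale. Among the class I processing genes, Tap2 was nearest to that mean, at 0.043, and Psme2 farthest, at 0.53. The mean itself was nearly flat, at -0.11, 0.04, -0.09 and 0.17 in the same order of libraries. In Th9+IL-1β cells in vivo the genes behind it ran from -0.54 for Psmb9 to 0.60 for Nlrc5. Nearness to it therefore does not show a pattern shared by the set.

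At 1 h, the comparison of Th9+IL-1β with Th9 cells asked how IL-1β acts on these genes at the start of culture. B2m stood at 123 FPKM with IL-1β and 106 without, far above the other class I processing genes. Psmb8, at 11.1 FPKM (5.26 to 16.5) in the IL-1β library, was listed at 0 in the other, so no fold is given. Its deposited interval there runs from 0 to 0, so the intervals stood apart by that bound, and proteasome core genes that cells need, such as Psma3 and Psmb3, were also listed at 0 in that library. By the rule it counted as higher. It was 1 of 7 class I processing genes compared, where 7.72% of the 933 genes compared were counted higher and 0.214% lower. Its intervals were the only ones of the 7 that stood apart, where 8.90% of all compared genes stood apart above and 0.322% below. The other catalytic subunits did not follow it, with Psmb9 listed at 0 with IL-1β and at 6.53 FPKM (0 to 13.3) without, and Psmb10 at 3.27 and 1.91 FPKM.

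Tap1 stood at 8.20 FPKM (4.92 to 11.5) with IL-1β against 2.36 (0 to 6.31) without, and Nlrc5 at 5.34 (3.70 to 6.88) against 2.52 (0.925 to 4.01). Their intervals overlapped and they were not counted. None of 6 compared class I heavy chain genes and none of 6 compared genes of interferon signalling was counted at 1 h. Psme1 (8.86 against 7.77 FPKM), Tapbp (9.54 against 9.06 FPKM) and Tap2 (3.92 against 4.57 FPKM) were close, and Psme2 was listed at 0 in both libraries. The median log2 ratio of the 7 genes was 0.21, against 0.30 over all genes compared. With equal medians of the 2 libraries, the ratio of Psme1, Tapbp and B2m turned from above to below 0, and with equal upper quartiles that of Tapbp did.

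At day 3 the comparison asked whether Th9 cells formed with IL-1β differ in these genes. None of the 10 was counted in either direction, where 1.29% of 7962 compared genes were counted higher and 2.15% lower. Psme1 came closest, with a ratio of 0.83 between 443 FPKM (335 to 413) in the IL-1β library and 249.6 (185 to 245) in the other. Psme2 had a ratio of 0.76 with overlapping intervals. At the other end stood Nlrc5 with a ratio of -0.48, from 11.01 FPKM (8.99 to 13.0) with IL-1β and 15.8 (13.4 to 18.1) without, and Tap1 at -0.30. Psmb10 (0.32), B2m (0.24), Psmb8 (0.18), Tap2 (0.06), Psmb9 (0.01) and Tapbp (-0.13) lay between. With the intervals alone, a rule added after seeing the data, Psme1 and B2m stood apart above and Nlrc5 below, where 5.69% and 12.7% of all compared genes did.

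Over the compared genes, ratios at day 3 ran with transcript length. The order among the 10 class I processing genes was not itself tested against length. The ratio of all genes fell with the length of the longest coding transcript, with a Spearman correlation of -0.58 across 7240 genes, which are not independent replicates. With the genes in 5 bins by length, its median was 0.37 in the shortest and -0.44 in the longest. Nlrc5, with 7578 bases the longest of the 10, lay on this trend, which is -0.47 at its length. With the trend taken off, the median of the 10 log2 ratios went from 0.12 to -0.03, Nlrc5 stood at -0.01, Psme1 at 0.45 and Psme2 at 0.34, and Psmb8, Psmb9 and B2m turned to below 0. The part of length in the differences was not tested in any other way.

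**Figure D2:**
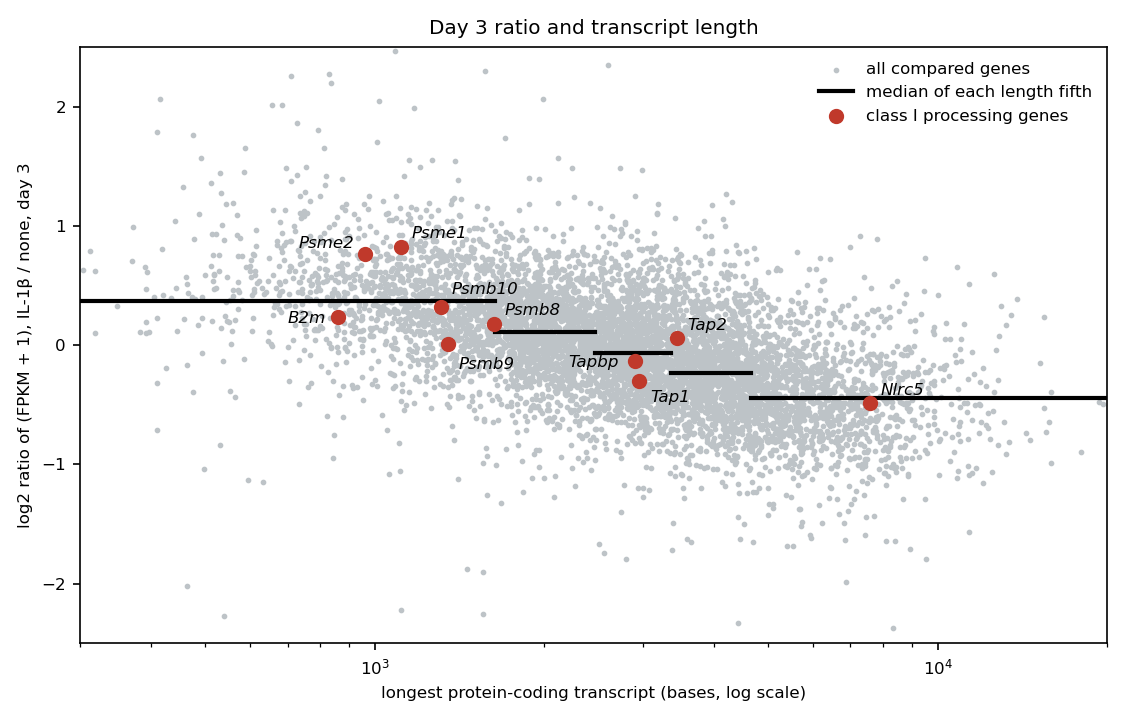
Log2 ratio of (FPKM + 1), Th9+IL-1β over Th9 at day 3, against the longest protein-coding transcript in bases (log scale); grey points are all compared genes with a length inside the axes, black bars the median of each of 5 length bins, red points the class I processing genes. Short Psme1 and Psme2 stand above the bar of their bin and long Nlrc5 close to its own.

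In vivo the comparison asked whether cells primed with IL-1β still differ 1 week after transfer. None of the 10 class I processing genes was counted here, where 6.23% of 8639 compared genes were counted higher with IL-1β and 3.48% lower. Of their ratios 8 were above 0, and the median of the 10 was 0.30, against 0.03 over all compared genes. The catalytic subunit genes Psmb8 and Psmb9 were the 2 below 0. Psmb9 stood at 105 FPKM (59.6 to 102) with IL-1β against 173 (107 to 162) without, intervals that do not overlap, at a ratio of -0.72. Psmb8 stood at 253 against 299.6 FPKM (-0.24), and Psmb10 at 49.8 against 45.5 FPKM (0.12).

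The other 8 genes had ratios above 0. That of Nlrc5 was 0.46, from 27.0 FPKM (23.3 to 30.6) with IL-1β and 19.3 (16.3 to 22.3) without. Tapbp stood at 156 FPKM (142 to 170.4) against 122 (109.7 to 135), a ratio of 0.35, and B2m at 3473 (2390 to 2647) against 2711 (1911 to 2126), 0.36. The intervals of these 3 were apart, by at most 1.38-fold, and with that of Psmb9 this made 3 of 10 apart above and 1 below, where 9.91% and 8.33% of all compared genes were. Tap1 (0.25), Tap2 (0.22) and Psme1 (0.39) had overlapping intervals. Psme2 had the largest ratio of the 10, 1.39, at 17.8 FPKM (9.41 to 27.2) against 6.16 (0 to 13.5), and missed the rule because its intervals overlapped.

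Psmb9 and Tap1, which start from the stretch of 225 bases printed above, had ratios of opposite sign in this comparison. The FPKM of Tap1 was 0.490, 0.394 and 0.529 times that of Psmb9 in Th9 cells at day 3, Th9+IL-1β cells at day 3 and Th9 cells in vivo, and 1.05 times in Th9+IL-1β cells in vivo. In the last library the interval of Tap1, 98.5 to 121 FPKM, and that of Psmb9, 59.6 to 102, overlapped, while in the other 3 that of Tap1 lay below. The longest coding transcripts have 2953 bases for Tap1 and 1352 for Psmb9. The length trend at these lengths was -0.07 and 0.31 for IL-1β at day 3, and 0.02 and 0.02 for IL-1β in vivo. For in vivo against day 3 with IL-1β it was 0.01 and -0.39. The part of length in the Tap1 to Psmb9 values was not tested.

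**Figure D3:**
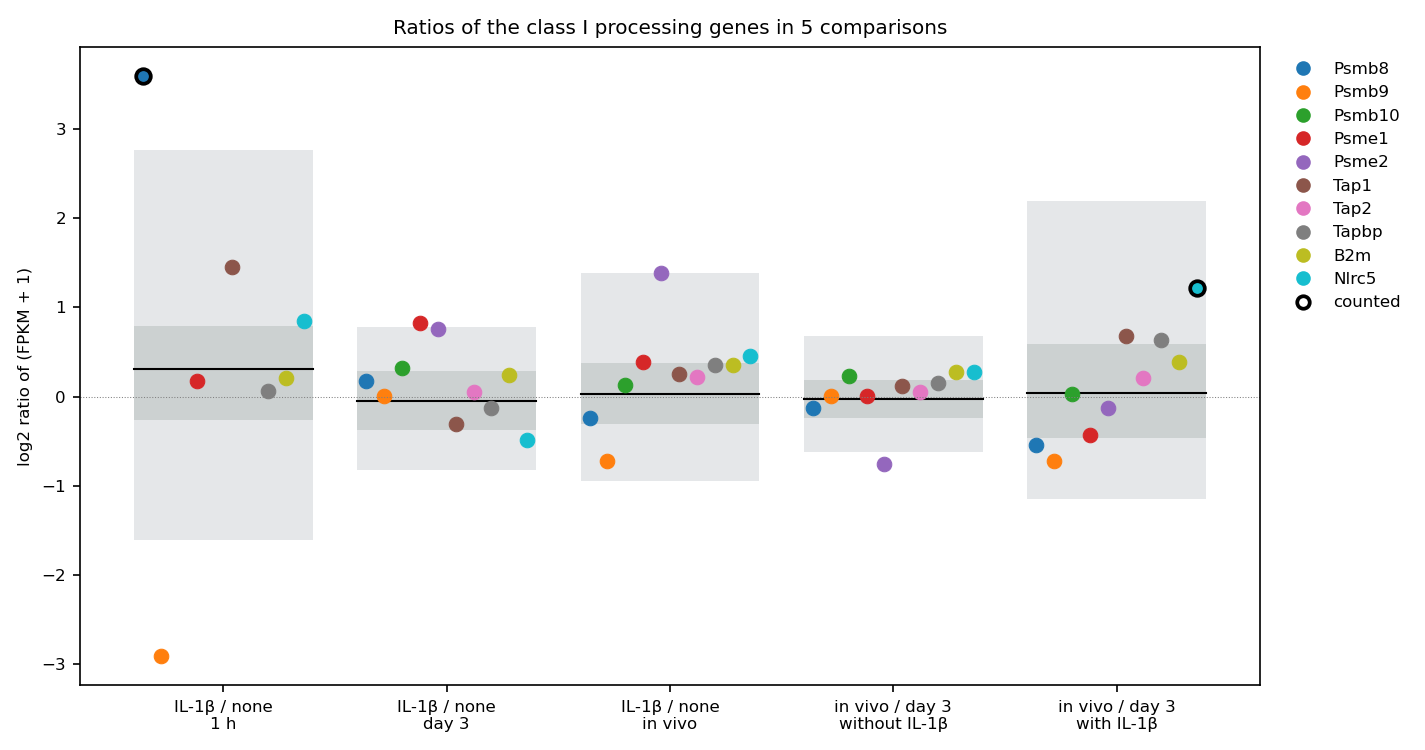
Log2 ratio of (FPKM + 1) of each class I processing gene in the 5 comparisons, with genes under 5 FPKM in both libraries left out; light and dark grey boxes hold the middle 90% and 50% of all compared genes, black lines mark their median, and a black ring marks a counted gene. Rings stand on Psmb8 at 1 h and Nlrc5 in vivo against day 3 with IL-1β, and in vivo Psmb9 and Psmb8 lie below 0 while the other 8 lie above.

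The 11 genes of interferon signalling, which acts on this set, had a median ratio of 0.33 with IL-1β in vivo. Where 6.23% of all compared genes were counted higher and 3.48% lower, 4 of the 11 were counted higher and 0 lower. These were Ifng itself at 86.3 against 11.4 FPKM (2.81), the receptor chain gene Ifngr1 at 138 against 62.5 FPKM (1.13), the transcription factor gene Irf1 at 84.2 against 31.8 FPKM (1.38), and Irf9, a transcription factor gene of the interferon response, at 40.1 against 17.1 FPKM (1.18). Of the 11 ratios in this list, 9 were above 0 and 2 below, those of Jak2 (-0.61, the lowest) and Socs1. A difference between this list and the class I processing genes was not tested. Class I heavy chain genes and their relatives had 4 of 12 compared counted higher and 1 lower, and a median of 0.59. The higher ones were the nonclassical genes H2-T23 at 216 against 101 FPKM (1.09), H2-T10 at 11.9 against 4.69 FPKM (1.18) and H2-T24 at 10.5 against 2.85 FPKM (1.58), and Cd1d1, which presents lipids, at 7.65 against 0.863 FPKM (2.21). Mr1, which presents vitamin metabolites to MAIT cells, was lower at 2.10 against 7.33 FPKM (-1.43).

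The classical heavy chain genes H2-K1 and H2-D1 stood at 1246 against 852 FPKM (0.55) and at 842 against 594 FPKM (0.50), with intervals apart, beside 0.36 for B2m. H2-Q6 had a ratio of 1.12 with overlapping intervals. Among H2 genes reads can be shared, since 43.0% of the stretches of 50 bases of H2-T10 and 28.8% of those of H2-T23 occur in other genes.

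The other 5 lists of the pathway held no counted gene in vivo. None of 12 genes of peptide trimming and loading was counted (median 0.13), with the tapasin relative gene Tapbpl at 0.98, the cysteine peptidase gene Blmh at -0.50, the chaperone gene Hspa5 at 0.48 and the insulin-degrading protease gene Ide at 0.29. None of 13 compared genes of the standard 20S core (median 0.02) was counted, with Psmb4 at 0.40, Psma7 at 0.33, Psma4 at -0.31 and Psma1 at -0.29 at the ends. None of 17 genes of the 19S regulator (median 0.08) was counted, with Psmd6 at 0.75, Psmc5 at 0.63, Psmd12 at 0.47 and Psmc1 at -0.36, nor any of 7 other activator and assembly genes (median 0.19), with Psmg3 at 0.67, Psmf1 at 0.55, Psmg1 at -0.36 and Pomp at 0.29. The 8 partners of Nlrc5 at class I promoters had 0 counted and a median of -0.08, with Nfyc at 0.64, Nfya at -0.49, Rfxap at 0.40 and Nfyb at -0.16.

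**Figure D4:**
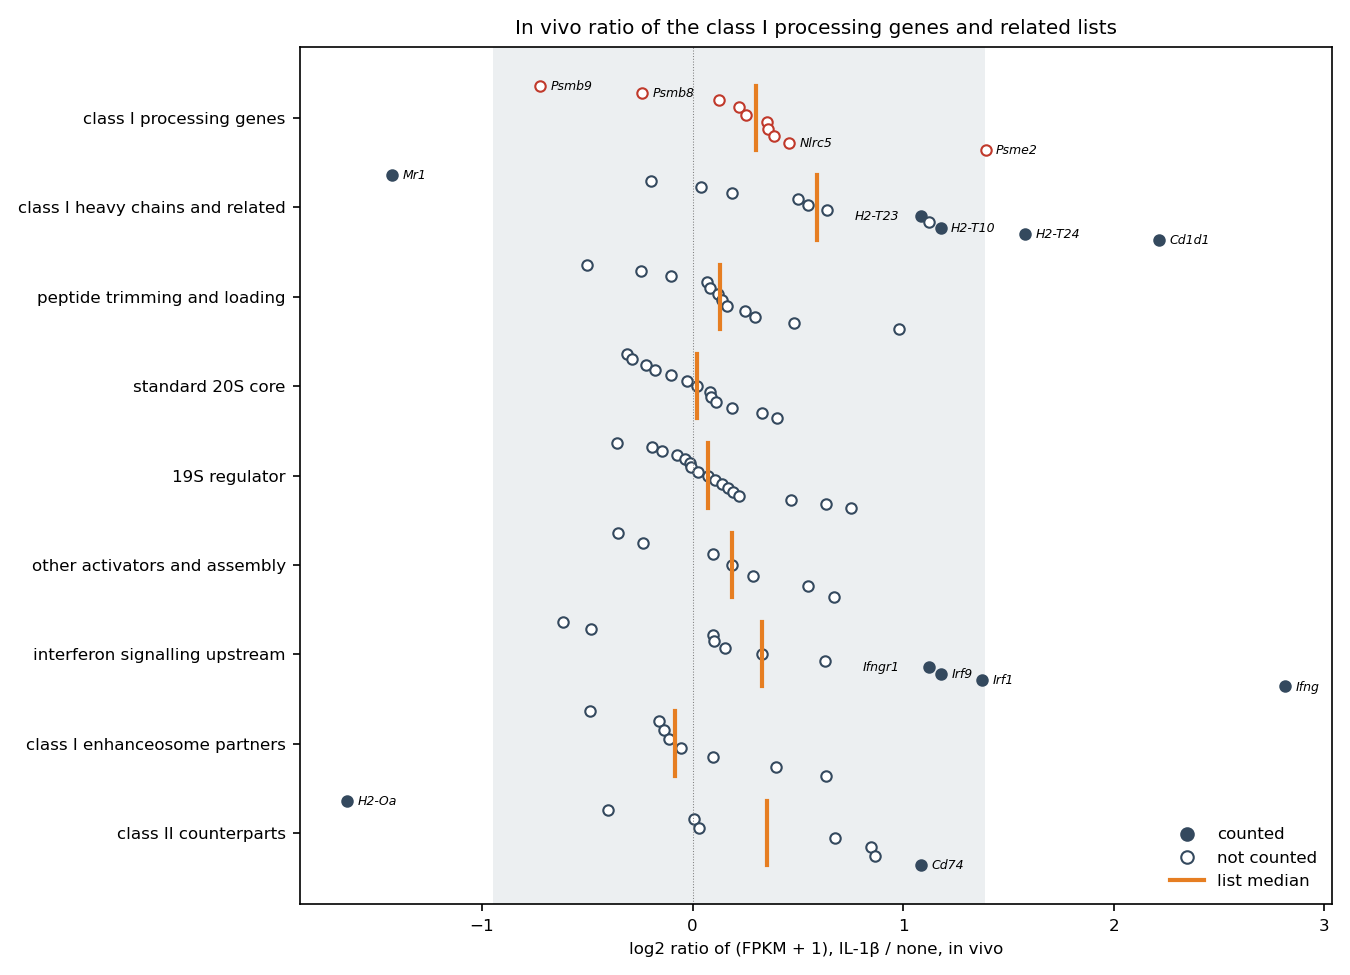
Log2 ratio of (FPKM + 1), Th9+IL-1β over Th9 in vivo, for each compared gene of 9 lists; filled points are counted, open ones not, orange bars are list medians and the grey band holds the middle 90% of all compared genes. The 10 class I processing genes (red, top row) are all open, while 4 interferon signalling genes and 4 heavy chain relatives are filled on the right.

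Transcripts of other cells differed in this comparison. The 7 alveolar and airway epithelium markers summed to 17239 FPKM with IL-1β and 6632 without, against 13.0 and 12.5 in the same order at day 3, with 6 of 6 compared counted higher. The 10 myeloid markers found summed to 1789 against 583 FPKM, with 3 of 7 compared counted higher, and 6 stroma and endothelium markers to 105 against 37.7 FPKM, with 4 of 5 counted higher. The 7 T cell markers summed to 1632 against 1933 FPKM, and 0 of them were counted. B cell markers (26.4 against 42.5 FPKM, 1 of 3 counted lower, Cd79b), erythroid markers (526 against 358 FPKM, 0 of 1 counted) and markers of CD8 T and NK cells (17.3 against 18.3 FPKM, 0 of 2 counted) made up the rest. Of the class II genes, which antigen-presenting cells express, 1 of 8 was counted higher, the invariant chain gene Cd74 at 596 against 281 FPKM (1.08), and 1 lower, H2-Oa (-1.64), with H2-Ab1 at 0.87, H2-Aa at 0.85 and a median of 0.35. The class I processing genes are active in most nucleated cells. The part of these other cells in the class I values was not tested.

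The comparison of in vivo with day 3 followed each arm through transfer. The libraries are those of the IL-1β comparisons, so these ratios are not separate evidence. Without IL-1β, none of the 10 class I processing genes was counted, where 2.13% of 8126 compared genes were counted higher in vivo and 0.665% lower. Their log2 ratios ran from -0.76 for Psme2 to 0.28 for Nlrc5, with a median of 0.08 against -0.03 over all genes, and B2m alone had intervals apart (0.27), where 3.10% of all compared genes stood apart above and 3.51% below.

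With IL-1β, 1 of the 10 was counted, Nlrc5, with a ratio of 1.22 between 27.0 FPKM (23.3 to 30.6) in vivo and 11.01 (8.99 to 13.0) at day 3. Of 8572 compared genes 12.0% were counted higher in this step and 5.87% lower. With the trend of this ratio on transcript length taken off, Nlrc5 stood at 0.71 and was no longer counted, and with a pseudocount of 5 it stood just under the 2-fold limit. Tap1 (0.68), Tapbp (0.63) and B2m (0.39) also had intervals apart above, and Psmb9 (-0.72), Psmb8 (-0.55) and Psme1 (-0.43) apart below, where 20.8% and 14.1% of all compared genes were. Psme1 and Psme2 (-0.13) turned to above 0 with the length trend removed. Tap2 (0.21) and Psmb10 (0.03) had overlapping intervals. Whether the 2 arms differ in this step was not tested.

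In the same step 2 of 11 interferon signalling genes were counted higher in the IL-1β arm, Ifngr1 (1.16) and Irf1 (1.46). In the other arm 0 of 11 were counted higher and 1 lower, Ifng at 11.4 FPKM in vivo against 44.0 at day 3 (-1.86). The heavy chain gene H2-Q6, the only heavy chain gene counted in either arm, had a ratio of 1.60 in the IL-1β arm, from 12.2 FPKM at day 3 to 39.1 in vivo. It had been counted lower with IL-1β at day 3, against 31.0 FPKM (-1.28). Of the stretches of 50 bases of H2-Q6, 32.0% occur in other genes, so its level is uncertain. At day 3 the proteasome assembly gene Pomp was counted higher with IL-1β, at 333 against 161 FPKM (1.04), as the 1 gene of the 20S, 19S and assembly lists. The medians of these lists at day 3 were 0.48, 0.35 and 0.45, beside -0.05 over all compared genes and 0.37 in their shortest length bin. In vivo against day 3, 17 of 17 genes of the 19S regulator had ratios below 0 in each arm, none counted, with medians of -0.32 without and -0.56 with IL-1β. The 13 compared 20S core genes had medians of -0.25 and -0.65. The medians over all compared genes were -0.03 and 0.04, and in the shortest length bin -0.03 and -0.44. The lengths of the 20S, 19S and assembly genes were not set against these bins, and the part of length in their medians was not tested. The class II genes Cd74, H2-Aa, H2-Ab1 and H2-Eb1 were counted higher in vivo than at day 3 in both arms, beside the markers of other cells given above.

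FPKM is scaled to length, and each immunoproteasome subunit was set against the standard subunit it replaces. Ratios between libraries still ran with transcript length, with a Spearman correlation of -0.58 for IL-1β at day 3. It was 0.36 for in vivo against day 3 with IL-1β, 0.04 without, and -0.01 for IL-1β in vivo. The part of length in the subunit ratios was not tested. Psmb8 stood at 4.31, 4.07, 5.50 and 4.39 times Psmb5 in Th9 cells at day 3, Th9+IL-1β cells at day 3, Th9 cells in vivo and Th9+IL-1β cells in vivo. Psmb9 stood at 1.57, 1.24, 2.19 and 1.16 times Psmb6, and Psmb10 at 0.336, 0.324, 0.480 and 0.534 times Psmb7. The first pair thus held more of the immunoproteasome form and the last more of the standard form in all 4 libraries. In Th9 cells the ratio in vivo was 1.28, 1.39 and 1.43 times that at day 3 for the 3 pairs. In Th9+IL-1β cells it was 1.08, 0.931 and 1.65 times. The standard subunit genes were lower in vivo in both arms. In Th9 cells Psmb5 went from 76.0 to 54.4 FPKM, Psmb6 from 109 to 79.1 and Psmb7 from 115 to 94.8. In Th9+IL-1β cells they went from 91.3 to 57.7, from 139 to 90.4 and from 150 to 93.2 FPKM. In Th9 cells Psmb8 went from 328 to 299.6 FPKM, Psmb9 from 172 to 173 and Psmb10 from 38.8 to 45.5. Ranges drawn from the bounds of both genes overlapped between the libraries for each pair, and 57.1% of the 50-base stretches of Psmb5 occur in other genes, so its level is uncertain.

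**Figure D5:**
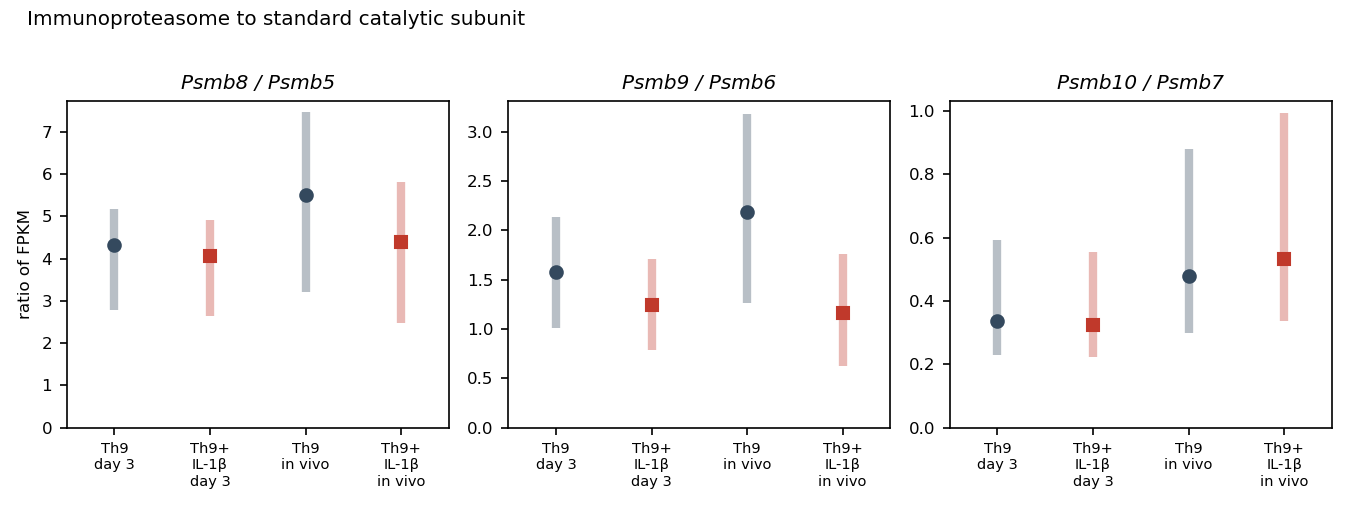
Ratio of FPKM of each immunoproteasome catalytic subunit to its standard counterpart in the 4 poly(A) libraries; circles are Th9, squares Th9+IL-1β, and bars run from the lowest to the highest ratio the deposited bounds of both genes allow. The bars overlap within each panel, and Psmb10 stays below Psmb7 in every library.

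An effect of IL-1β shared by the 3 stages was tested with limma on log2(FPKM + 1) over 8946 genes, with stage as a covariate and 2 residual degrees of freedom. The 3 stages are not replicates of a condition, and they differ in library type and in culture or transfer. The SE and p thus reflect how the IL-1β difference varied between stages, not variation between replicates. The test also draws the variance of each gene toward a value estimated from all genes tested. The SE and p of a gene therefore do not rest on its own spread alone. At an adjusted p under 0.05 the test called 0 genes (0.00%) and 0 of the 10 class I processing genes. An unadjusted p under 0.05 was reached by 320 genes, among them 1 of the 10, Psmb9. Its log2 effect was -1.21 (SE 0.52, limma adjusted p = 0.937), below 0 at 1 h and in vivo and close to 0 at day 3. Without the 1 h stage its effect was -0.36 (limma adjusted p = 0.999), and that of Psme2 was 1.08 (SE 0.37, limma adjusted p = 0.416), above 0 at both stages.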

How the data were processed

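RNA-seq of 6 mouse libraries was used, sequenced on a MiSeq per the labels' protocols. The submitters' processing notes name TopHat and mm9; the tool that made the values is not named. The deposited FPKM and their bounds were made by the authors, per the file headers. Each file has 23700 entries, of which 285 with a status other than OK were left out. Entries sharing a symbol were summed. Genes with at least 5 FPKM in 1 of 2 libraries were compared, with a pseudocount of 1. Class I processing genes and lists were chosen with earlier results of these data known. Beside them the text names the standard catalytic subunits, counted list genes, up to 4 genes per list with the largest in vivo ratio, and the 5 nearest patterns; other genes were named after their values were seen. A gene of the lists is not reported here. Lengths and 50-base stretches came from GENCODE M21 transcripts, matched by symbol for 90.9% to 94.9% of compared genes. The length trend was a lowess curve (fraction 0.3). The limma test (3.58.1, R 4.3.3, Benjamini-Hochberg adjustment) was tested on simulated data. Other values used Python 3.11.15 with pandas 2.3.3, numpy 2.4.6, statsmodels 0.14.6 and scipy 1.17.1. Figures used matplotlib 3.10.9.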

Additional observations from a re-analysis of the deposited data

How the results depend on the processing

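The 50 ratios of the 10 class I processing genes were recomputed with pseudocounts of 0.1 and 5, no minimum and a minimum of 10 FPKM, intervals not used, equal medians, equal upper quartiles, the length trend removed and, chosen after seeing the data, a fold of at least 1.5. Directions changed for 3 ratios with equal medians, 1 with equal upper quartiles and 6 without the length trend, all uncounted. Without intervals, 2 were higher and 1 lower at 1 h and 1 higher in vivo. Over all genes 180 of 933 were then higher and 91 lower at 1 h, and 707 of 8639 higher in vivo. At 1.5-fold 1 was higher at day 3 (Psme1), 1 lower in vivo (Psmb9), and 3 higher and 1 lower in vivo against day 3 with IL-1β, where over all genes 291 of 7962 were higher at day 3, 566 of 8639 lower in vivo, and 1643 higher and 1023 lower of 8572 in the last. In that comparison the count of 1 higher gene (Nlrc5) became 0 with a pseudocount of 5 and 0 with the length trend removed. Over all genes the settings gave 27 to 385 higher and 0 to 91 lower at 1 h (72 and 2 as reported), 70 to 291 and 40 to 736 at day 3 (103 and 171), 326 to 829 and 165 to 566 in vivo (538 and 301), 106 to 391 and 29 to 160 in vivo against day 3 without IL-1β (173 and 54), and 621 to 1719 and 339 to 1023 with it (1032 and 503). With equal medians the median ratio of all compared genes at 1 h was 0.03, against 0.30 as deposited. The limma test called 34 genes without the 1 h stage, none of the 10, and 0 without day 3, without in vivo, with the other pseudocounts and without a minimum. Leaving out a stage left 1 residual degree of freedom. The cause was not tested. A pseudocount of 1 in both terms left the subunit ratios of the poly(A) libraries inside the range of their bounds. The limma test sets the arms of a stage together through its stage term. No other paired analysis was possible, because each group has 1 library and no replicate numbers to pair.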
